A study of Mus musculus with 24 samples.

Results

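The myelin genes *Mbp*, *Mog*, *Mag*, *Mobp*, *Cnp*, *Cldn11*, *Mal*, *Ugt8a* and *Aspa* were followed in oligodendrocytes and in the other nuclei of the mouse brain, in mice with and without a defect of platelet-derived growth factor B. The 9 genes were taken by symbol from the 32288 genes listed in the count tables, and each symbol matched 1 row. The rule that picks them is by name and uses no measured value, although the list was drawn up with earlier results of these data known. The series comprised 24 single-nucleus libraries (10x 5′ chemistry with unique molecular identifiers, UMIs) from 12 mice of strain B6.Pdgfbtm3Cbet. Each mouse gave a deep brain library, from regions prone to vessel calcification, and a library of cortical tissue, which stays free of calcification. The paper names hippocampus beside cerebral cortex for the cortical tissue, which is called cortex below. For the deep brain it names pallidum, thalamus, hypothalamus, midbrain and pons. The 6 mutants were Pdgfb ret/ret females, whose platelet-derived growth factor B lacks the motif that retains it near the endothelium. The 6 controls were Pdgfb ret/wt mice, 5 female and 1 male (mouse 6), so that the controls carried 1 ret allele as well. The groups were therefore deep brain mutant, deep brain control, cortex mutant and cortex control, with 6 libraries each. The ages matched across the genotypes: mutants and controls numbered 1 to 4 had the same age to the day, and the ages of mice 5 and 6 were swapped. Mice 1 to 3 of each genotype were aged 5 months and 0 to 18 days, and mice 4 to 6 were aged 4 months and 7 to 24 days. The brains were frozen before the nuclei were isolated, and the counts from the transcript start do not show the altered end of *Pdgfb*, so the genotype labels were not checked here.

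Myelin is the spiral of oligodendrocyte membrane that insulates axons. Oligodendrocyte precursor cells divide, leave the cell cycle, pass through a short newly forming stage and then switch on the genes of the sheath together, under factors such as Sox10 and Myrf. Among the 9 genes, *Mbp* encodes the basic protein that holds the cytoplasmic faces of the membrane together and *Mobp* encodes another small basic protein of compact myelin. *Mog* and *Mag* encode immunoglobulin-like proteins of the outer surface and of the face toward the axon. *Cnp* encodes a cyclic nucleotide phosphodiesterase of the non-compact channels, *Cldn11* the claudin of the tight junctions between the layers, and *Mal* a proteolipid of membrane transport. *Ugt8a* and *Aspa* encode enzymes: the former makes galactosylceramide, the main glycolipid of myelin, and the latter, aspartoacylase, splits N-acetylaspartate, which neurons make, into aspartate and acetate.

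Promoter sequences are shown for the members that share the letters of Myrf and for *Aspa*, the member that differed between the genotypes. The 250 bases before each start were read from the RefSeq promoters (build GRCm38.p6). A promoter was at hand for 8 of the 9 genes, all but *Mbp*, and both strands were searched. The letters CTGGCAC or CTGGTAC, which Myrf is known to bind, were found in 3 of the 8, and 5.93% of 32851 promoters held them. Here and for the other letters below, members are counted by gene over all their RefSeq starts, whereas the shares are of single promoters. A gene with more starts has more chances of a match. The stretches from 110 to 51 bases before the start, with the match in capitals, were as follows. *Mag* has more than 1 RefSeq start, and the stretch is placed on one of them: from another start the same letters lie 9 to 3 bases before it. For *Mog* the match lies on the other strand and is printed as its complement.
Mog, chr17:37023449-37023508, minus strand: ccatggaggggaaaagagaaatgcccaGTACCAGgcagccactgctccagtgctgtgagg
Mag, chr7:30914914-30914973, minus strand: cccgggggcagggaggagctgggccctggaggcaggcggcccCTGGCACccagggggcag
Cnp, chr11:100574829-100574888, plus strand: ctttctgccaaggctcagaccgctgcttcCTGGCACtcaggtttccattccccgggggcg
The Sox letters ACAAAG or ACAATG were found in *Mag*, *Mobp* and *Cnp*, and in 25.2% of all promoters. The E-box CAGCTG was found in *Aspa* alone among the 8, and in 13.0% of all promoters. It is in capitals in the 250 bases before the RefSeq start of *Aspa*, which lies inside the longer gene span that the GENCODE annotation gives below, so the stretch is not upstream of that whole span.
Aspa, chr11:73324638-73324887, minus strand: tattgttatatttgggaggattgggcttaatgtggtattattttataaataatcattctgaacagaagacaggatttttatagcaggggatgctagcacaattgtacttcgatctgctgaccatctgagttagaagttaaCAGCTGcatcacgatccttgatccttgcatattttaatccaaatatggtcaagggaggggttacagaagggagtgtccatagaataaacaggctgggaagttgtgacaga
The matches describe letters within these windows and are not evidence of binding.

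The deep brain libraries held 64736053 to 96459036 UMIs, and 124958 of 127519 barcodes passed the filters on genes and mitochondrial reads. The cortical libraries held 23625232 to 95605387 UMIs, and 79967 of 109705 barcodes passed. Depth differed within the cortex: 7 of its libraries (mutants 1 to 4 and controls 1, 3 and 4) had medians of 804 to 1160.5 UMIs per barcode, and the other 5 had at least 4597. Of 203940 distinct barcodes, 30178 (14.8%) occurred in more than 1 library, and no pair of libraries shared more than 2.37% of the smaller one. Nuclei were clustered without the 9 genes and named from other markers, which gave 30243 oligodendrocytes in the deep brain (1828 to 3153 per library) and 6968 in the cortex (183 to 1921 per library). With the 9 genes left in, 30230 of the former and 6964 of the latter were chosen again. All markers of the 3 other lists looked at there (neuronal, astrocytic and microglial) had UMIs in the oligodendrocytes: the 7 neuronal markers summed to 360 to 796 CPM (the usual depth-scaled count, a gene's UMIs relative to all UMIs of the class in that library) in deep brain mutants and 433 to 659 in controls, and to 550 to 1005 and 732 to 1185 in the cortex. In the cortex, 42191 nuclei stayed in clusters without a name, 31440 of them shallow.

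The nuclei named oligodendrocytes without the 9 genes had the highest levels of them. The 9 genes made up 1.32 to 1.51% of all UMIs of deep brain oligodendrocytes (median 1.46%, n = 12 libraries) and 1.304 to 1.58% in cortical ones. In deep brain neurons they made up 0.0160 to 0.0223%. The ranges of the oligodendrocytes and the neurons lay far apart. Per kilobase of the gene's span (mm10), the mean level in deep brain oligodendrocytes was highest for *Mog* (90.1 CPM per kb) and *Mag* (87.5), followed by *Cldn11* (69.3), *Mobp* (54.1), *Mbp* (47.4), *Mal* (43.1), *Aspa* (39.9), *Cnp* (21.3) and *Ugt8a* (19.5). Per kilobase of exons the order was another, with *Mog* at 669 and *Mbp* at 618 CPM per kb ahead of the rest and *Aspa* (165) and *Cnp* (98.3) last. Intronic reads were counted and the chemistry reads the 5′ end, so neither length is exact for these counts.

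*Mag*, *Cldn11*, *Mal*, *Ugt8a* and *Aspa* overlap no other gene in the mm10 annotation, and the other 4 members do. *Mog* occupies chr17:37010743-37023398, *Mag* chr7:30899176-30914873, *Cldn11* chr3:31149920-31164324, *Mal* chr2:127633226-127656695, *Ugt8a* chr3:125865271-125938619 and *Aspa* chr11:73304992-73329596. *Mobp* (chr9:120149707-120181484) overlaps *Gm38642* on its own strand and *Cnp* (chr11:100574904-100591729) overlaps *Dnajc7* on the other strand, and both of these neighbours have rows of their own in the count tables. *Mog* overlaps *Gm22388* and *Mbp* overlaps *Rpl21-ps8*, each on the other strand, and neither of these was matched to a row. Whether strand was used in the counting was not given in the sources used here, so it is not known whether reads of *Cnp* and *Dnajc7* in the overlap were kept apart.

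*Aspa* was lower in mutant oligodendrocytes of the deep brain, and it was the only one of the 9 genes that passed the test there. In the 6 mutants it ran from 776 to 987 CPM with a median of 815, and in the 6 controls from 1029 to 1191 with a median of 1158. The 2 genotypes did not overlap: the highest mutant lay below the lowest control. For this and the later comparisons, the share of all genes whose groups separate in this way is not given. The means were 840 ± 77.0 and 1125 ± 72.6 CPM (SD, n = 6 each). *Aspa* fell by 0.39 ± 0.08 on the log2 scale (SE), which is 23.7% lower with a 95% interval of -0.54 to -0.24, and its adjusted p was 0.020 in edgeR's quasi-likelihood test over all 13515 genes tested. Of those genes, 1.66% passed the same test, against 1 of 9 members. Among single nuclei, 84.9% of mutant and 90.1% of control oligodendrocytes had at least 1 *Aspa* UMI. Without mutant 3 the adjusted p of *Aspa* was 0.054 and without control 2 it was 0.055, with differences of -0.39 and -0.38. Without control 6, the male, the difference was -0.42 and the adjusted p 0.018. With the replicate number as a block, which also matches most mice by age, the difference was the same and the adjusted p was 0.055. Oligodendrocytes with no UMI of *Rbfox3*, *Snap25*, *Slc1a2* or *Aqp4*, a part of the neuronal and astrocytic markers, gave -0.40 with an adjusted p of 0.015 (edgeR).

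The cortex, which does not calcify, showed *Aspa* lower by nearly the same amount. Mutant levels ran from 707 to 924.3 CPM (median 762) and control levels from 993 to 1152 (median 1108), again without overlap. *Aspa* fell by 0.41 ± 0.09 on the log2 scale, 24.8% lower (interval -0.59 to -0.23), with an adjusted p of 0.043 by edgeR's quasi-likelihood test. In this comparison 0.95% of 10104 genes passed, and 1 of 9 members. The call was lost without any 1 of mutants 1, 2, 4 and 5 and controls 1 to 4 (adjusted p of 0.065 to 0.11) and in the 5 deeper libraries alone (-0.27, adjusted p 0.70), while the 7 shallow libraries alone gave -0.51 with an adjusted p of 0.019. Blocking on the replicate number gave an *Aspa* difference of -0.42 and an adjusted p of 0.0053. The summed neuronal markers in cortical oligodendrocytes had medians of 791 CPM in mutants and 947 in controls, and the astrocytic ones of 288 and 356. Among nuclei with no UMI of *Rbfox3*, *Snap25*, *Slc1a2* or *Aqp4* the *Aspa* difference was -0.49 with an adjusted p of 0.035 (edgeR), as large as in all oligodendrocytes. Nuclei with UMIs of the other markers of these lists stayed in.

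The size of the *Aspa* difference did not detectably depend on the region. The interaction of region and genotype was 0.00 ± 0.12 on the log2 scale, with an interval of -0.22 to 0.23. This fit had no term for the mouse, although each mouse gave a library of both regions. None of the 9 members passed the test of the interaction with edgeR, none had an unadjusted p under 0.05 and DESeq2 called none of them. Over all 13638 genes, edgeR called 0 (0.0%), with 450 at an unadjusted p under 0.05, and DESeq2 called 4. Within the age sets, mice 1 to 3 alone gave -0.45 with an adjusted p of 0.012 for deep brain *Aspa* (edgeR), and mice 4 to 6 alone gave -0.33 with an adjusted p of 1.0. The cortical values were -0.47 (adjusted p 0.022) and -0.34 (adjusted p 1.0). The fits within each age had 3 mice per genotype, and the difference between the ages was not tested. In the cortex the age sets also differed in depth. The libraries of mice 1 to 3 were shallow except that of control 2. Those of mice 4 to 6 were deeper except those of mutant 4 and control 4. Age and depth were not separated there.

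**Figure D1:**
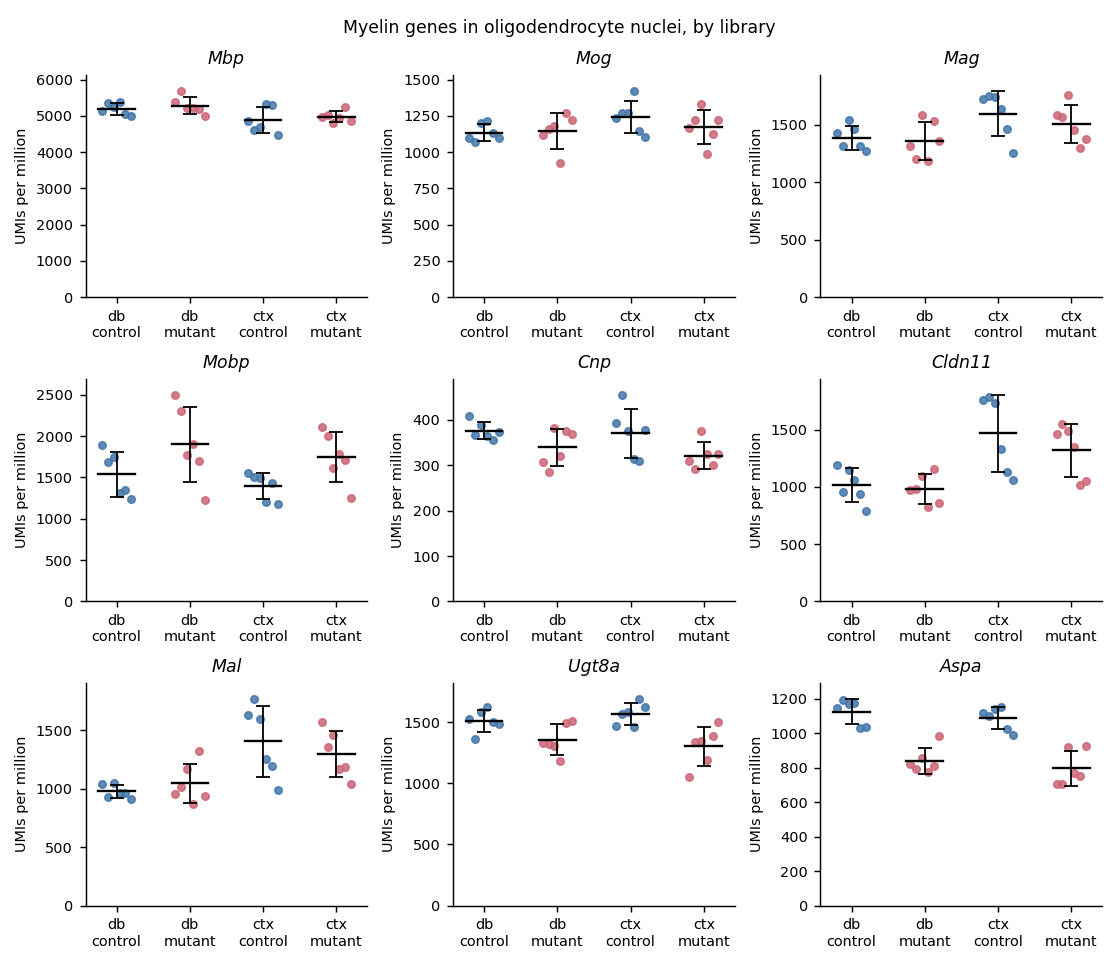
Level of each of the 9 myelin genes in oligodendrocytes, in CPM, for every library (points), with group means and SD (bars), by region and genotype. For *Aspa* every mutant library lies below every control library in both regions, while the groups of the other 8 genes overlap in both. The share of all genes that separate in this way is not given here.

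*Mobp* had a higher mean in the mutants of both regions and did not pass the test. In the deep brain its levels were 1225 to 2493 CPM in mutants (median 1840), against 1241 to 1893 in controls (median 1515), and these overlapped. The difference was 0.34 ± 0.16 on the log2 scale with an adjusted p of 0.34 by edgeR's quasi-likelihood test. In the cortex the levels were 1251 to 2103 (median 1748) and 1179 to 1551 (median 1463). The difference there was 0.36 ± 0.11, with an unadjusted p of 0.0061 and an adjusted p of 0.15. Mutant 6 had the lowest *Mobp* of its group in both regions, and without it the cortical difference was 0.43 with an adjusted p of 0.043. With the replicate block, *Mobp* in the cortex was at 0.35 with an adjusted p of 0.014 (edgeR), so that the call depends on the fit.

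The other 7 genes did not pass the test in either region. *Mbp*, the most abundant of them in UMIs, was at 5279 ± 232 CPM in deep brain mutants and 5196 ± 162 in controls (SD, n = 6 each), a difference of 0.05 on the log2 scale. *Mog* (1146 ± 121 and 1135 ± 60.5) and *Mag* (1361 ± 166 and 1388 ± 104) were as close. *Cldn11* (982 ± 129 and 1015 ± 150) and *Mal* (1045 ± 170 and 978 ± 56.4) had overlapping groups as well, as did all 5 of these genes in the cortex. *Cnp*, at 339 ± 40.7 and 376 ± 19.0 CPM, had a difference of -0.12 ± 0.08 and an adjusted p of 0.52 by edgeR's quasi-likelihood test.

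*Ugt8a*, the galactolipid enzyme, had a lower mean in the mutants of both regions. In the deep brain it was at 1179 to 1512 CPM in mutants (median 1325), against 1361 to 1619.9 in controls (median 1511), with a difference of -0.13 ± 0.08 and an adjusted p of 0.53 (edgeR). In the cortex it was at 1050 to 1502 (median 1341) and 1461 to 1685 (median 1574), with a difference of -0.23 ± 0.10, an unadjusted p of 0.035 and an adjusted p of 0.33. The groups of *Ugt8a* overlapped in both regions, although in the cortex 5 of 6 mutants lay below the lowest control.

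**Figure D2:**
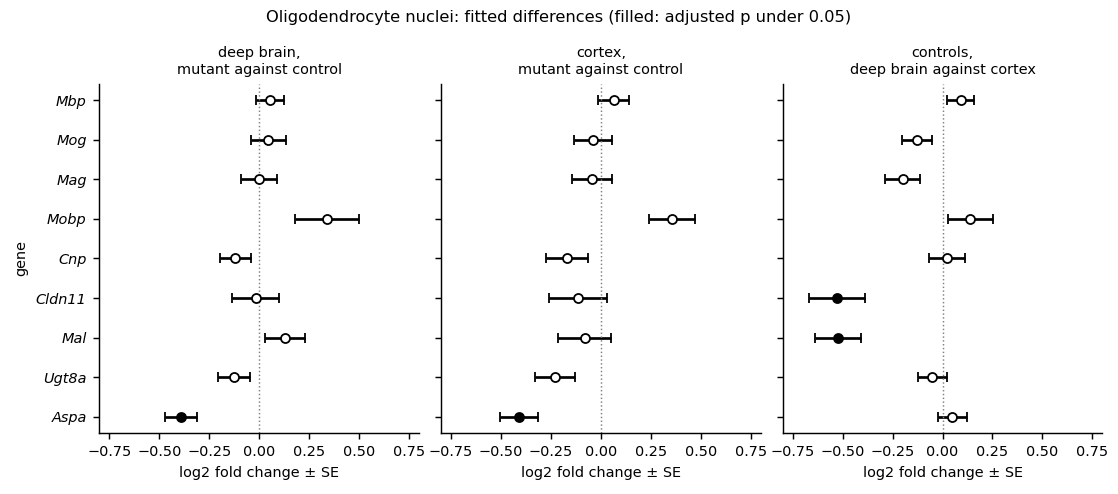
Log2 difference with its SE for each gene in oligodendrocytes in 3 comparisons, mutant against control in the deep brain, the same in the cortex, and deep brain against cortex in controls. Filled points passed an adjusted p of 0.05 in edgeR's quasi-likelihood test, and *Aspa* is filled in both genotype comparisons and *Cldn11* and *Mal* in the regional one.

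Among controls, *Cldn11* and *Mal* were lower in oligodendrocytes of the deep brain than in those of the cortex. *Cldn11* was at 1194, 960, 1146, 1065, 936 and 787 CPM in the deep brain of control mice 1 to 6 and at 1760, 1788, 1736, 1329, 1127 and 1063 in their cortex. *Mal* was at 1040, 929, 1052, 963, 965 and 916 CPM in the deep brain and at 1634, 1763, 1595, 1255, 1194 and 990 in the cortex. Both genes were lower in the deep brain of each of the 6 mice, although the groups of libraries overlapped. *Cldn11* fell by 0.53 ± 0.14 on the log2 scale (30.7% lower, adjusted p 0.024) and *Mal* by 0.52 ± 0.12 (30.4% lower, adjusted p 0.0085) in edgeR's quasi-likelihood test. Of 12702 genes, 7.35% passed this comparison, and 2 of 9 members.

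The regional difference was uneven over the mice. Without control 2 neither call held (*Cldn11* -0.43, adjusted p 0.13, and *Mal* -0.42, adjusted p 0.059), and without control 3 or control 4 the adjusted p of *Cldn11* was 0.061 or 0.051. In mice 1 to 3 alone *Cldn11* was at -0.68 and *Mal* at -0.72, both called, whereas in mice 4 to 6 alone they were at -0.33 (adjusted p 0.40) and -0.28 (adjusted p 0.44). The cortical libraries of controls 1 and 3 were shallow, as was that of control 4, so age and depth were not separated here. With the mouse as a block, the adjusted p was 0.00021 for *Cldn11* and 0.00056 for *Mal*. Shallow cortical libraries alone (controls 1, 3 and 4) gave -0.64 and -0.59, and no fit was made on the deeper cortical controls (2, 5 and 6) alone. The unnamed shallow clusters of the cortex held 20.0% of its *Cldn11* UMIs and 22.3% of its *Mal* UMIs, against 4.96% of its *Mbp* UMIs, and the part of such RNA in the regional difference was not tested. The summed neuronal markers of control oligodendrocytes had medians of 581 CPM in the deep brain and 947 in the cortex. Oligodendrocytes with no UMI of *Rbfox3*, *Snap25*, *Slc1a2* or *Aqp4* gave -0.54 (adjusted p 0.047) for *Cldn11* and -0.55 (adjusted p 0.019) for *Mal* with edgeR. Nuclei with UMIs of other neuronal or astrocytic markers stayed in. The same genes in the mutants had means of 982 ± 129 (*Cldn11*) and 1045 ± 170 CPM (*Mal*) in the deep brain and 1321 ± 230 and 1296 ± 198 in the cortex. The interaction for *Mal* was 0.19 ± 0.17 and that for *Cldn11* 0.08 ± 0.19, and neither passed.

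For the other 7 genes the regional difference was small. *Mag* was at -0.20 ± 0.09 (unadjusted p 0.038, adjusted p 0.23, edgeR), *Mog* at -0.13 and *Mobp* at 0.14. *Aspa*, the member with the clearest genotype difference, was at 0.05 between the regions, with control levels of 1125 ± 72.6 CPM in the deep brain and 1088 ± 63.7 in the cortex. *Mbp* was at 0.09, *Ugt8a* at -0.05 and *Cnp* at 0.02.

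Outside the mature oligodendrocytes, the genes fell into different orders along the lineage. Newly forming oligodendrocytes of the deep brain (542 nuclei) held *Mbp* at 66.5% of the mature level, *Cnp* at 61.1% and *Ugt8a* at 55.6%. *Mog* (27.7%), *Mal* (21.7%) and *Aspa* (18.5%) were the lowest there. These percentages of the oligodendrocyte level pool the UMIs over libraries. As a mean of libraries, *Mbp* was at 3523 ± 858 CPM in that stage against 5238 ± 196 in mature cells (SD, n = 12 libraries). *Aspa* was at 181 ± 58.8 against 982 ± 165. In precursor cells (3333 nuclei) *Ugt8a* was at 16.1% of the mature level and *Cnp* at 10.9%, while *Mobp* (0.987%) and *Aspa* (0.589%) were the lowest.

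*Ugt8a* was at 232 ± 14.8 CPM in deep brain precursor cells (n = 12 libraries). It ran from 204 to 257 CPM in mutants and 231 to 245 in controls. The level was about the same where no UMI of the other 8 genes was counted. Such precursor nuclei held 218 to 251 CPM of *Ugt8a* in controls (median 232) and 206 to 268 in mutants (median 250). With each nucleus thinned to 1000 UMIs (9 precursor nuclei, 194 neurons and 203 oligodendrocytes were shallower and left out), 21.2 ± 2.6% of precursor cells had a *Ugt8a* UMI, against 1.64 ± 0.45% of neurons, which should lack it, and 71.6% of oligodendrocytes. Unthinned, the shares were 60.8%, 11.9% and 93.6%, at library medians of 3907 to 5894, 6455.5 to 12270.0 and 2314.5 to 3312 UMIs per nucleus. Cortical precursor cells held 349 ± 78.2 CPM of *Ugt8a* (n = 11 libraries), but that class also held *Mbp* at 810 ± 516 CPM, against 88.1 ± 19.3 in deep brain precursor cells. None of the 8 members tested in deep brain precursor cells passed between the genotypes with edgeR, 0 had an unadjusted p under 0.05 and DESeq2 called 0, where 0.0466% of all genes passed.

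**Figure D3:**
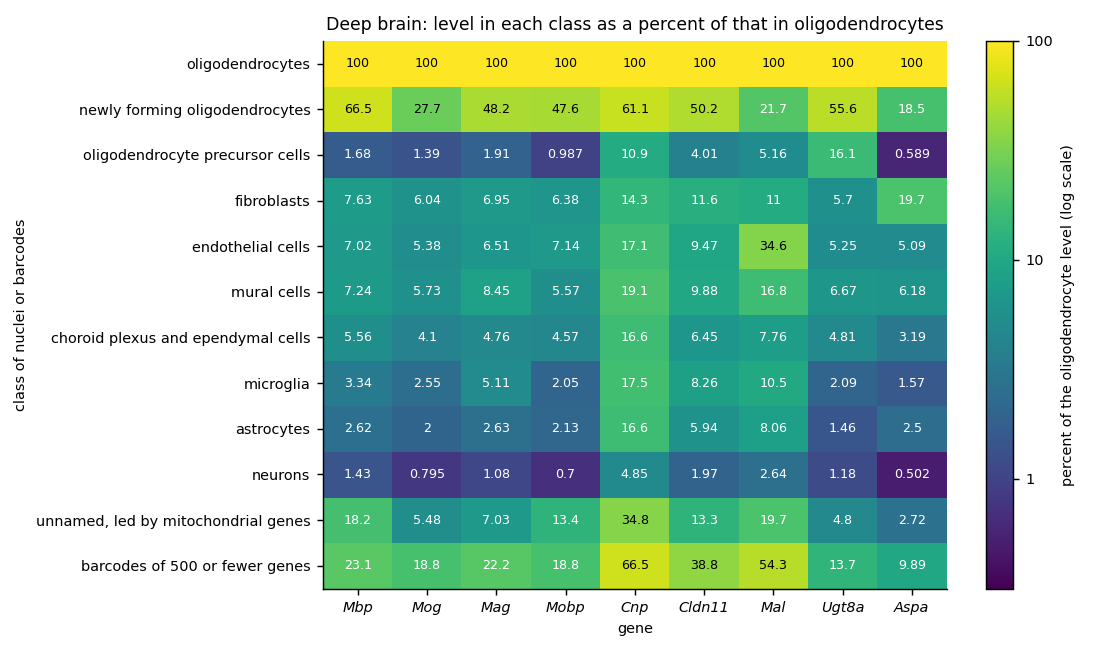
Level of each gene in each cell class of the deep brain as a percent of its level in oligodendrocytes, on a log colour scale. Among the named classes, newly forming oligodendrocytes are closest to the mature cells, except for *Mal*, which is higher in endothelial cells (34.6%), and *Aspa*, which is slightly higher in fibroblasts (19.7%). *Ugt8a* stands out in precursor cells (16.1%).

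Endothelial cells of the deep brain (760 nuclei) held *Mal* at 34.6% of the oligodendrocyte level, which is more than any of the other 8 genes (5.09 to 17.1%). *Mal* was at 299 to 546 CPM in mutants (median 369), against 250 to 392 in controls (median 278), and these overlapped. Each library rests on 27 to 188 *Mal* UMIs. Endothelial nuclei without a UMI of the other 8 genes still held 151 to 292 CPM in controls and 204 to 748 in mutants. These values rest on only 6 to 33 nuclei and 4 to 38 *Mal* UMIs per library, and no test was made on them. After thinning to 1000 UMIs, which left out 88 endothelial nuclei, 29.9 ± 8.4% of endothelial nuclei and 3.56% of neurons had a *Mal* UMI (53.7% and 22.6% unthinned). Mural cells (224 nuclei) held *Mal* at 16.8% of the oligodendrocyte level and *Cnp* at 19.1%.

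Fibroblasts (1306 nuclei) held *Aspa* at 19.7% of the oligodendrocyte level, above the other 8 genes in that class (5.70 to 14.3%). The level was 110 to 195 CPM in mutants (median 171), against 190 to 276 in controls (median 221), so the 2 genotypes overlapped narrowly. Fibroblast nuclei with no UMI of the other 8 genes had *Aspa* at 138 to 239 CPM in mutants (median 163), against 109 to 276 in controls (median 180). The summed oligodendrocyte markers of the fibroblasts (8 of 8 detected) ranged from 203 to 843 CPM in mutants (median 425), against 389 to 805 in controls (median 547). The astrocytic ones (5 of 5) ranged from 1216 to 1633 CPM in mutants (median 1418), against 1158 to 2654 in controls (median 1957). The part of either list in the *Aspa* values was not tested. Thinned to 1000 UMIs, which left out 40 fibroblasts, 17.7 ± 3.6% of fibroblasts had an *Aspa* UMI, against 0.457% of neurons (41.5% and 3.33% unthinned).

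Ordered by level, *Aspa* over both genotypes of the deep brain was highest in oligodendrocytes (982 ± 165 CPM), followed by fibroblasts (197 ± 47.6) and newly forming oligodendrocytes (181 ± 58.8), which overlapped each other. Mural cells (66.7 ± 43.0, 6 libraries), endothelial cells (52.0 ± 29.1), choroid plexus and ependymal cells (31.1 ± 18.6, 11 libraries), astrocytes (25.5 ± 10.8) and microglia (16.0 ± 10.5) came next, each within the spread of its neighbour. Precursor cells (5.8 ± 2.0) and neurons (5.0 ± 1.2) were the lowest and did not differ beyond their spread.

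In deep brain astrocytes *Aspa* was lower in the mutants too. It ran from 12.5 to 21.9 CPM in mutants (median 16.8), against 22.8 to 48.0 in controls (median 31.9), without overlap, on 41 to 120 UMIs per library. *Aspa* fell by 0.99 ± 0.17 on the log2 scale, with an adjusted p of 0.0025 by edgeR's quasi-likelihood test. It was 1 of 9 members called, where 5.01% of 12827 genes passed. Oligodendrocyte markers were at about equal levels in the astrocytes of both genotypes, with all 8 detected and sums of 61.7 to 95.1 CPM in mutants (median 81.0), against 54.2 to 93.5 in controls (median 73.3).

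The astrocyte difference was also present in nuclei in which no UMI of the other 8 genes was counted. The part of free RNA in this difference was not tested. Astrocytes without a UMI of the other 8 members numbered 1696 of 5814 in mutants and 1262 of 4639 in controls. *Aspa* was there at 8.04 to 28.6 CPM in mutants (median 18.3), against 27.1 to 40.8 in controls (median 31.4), on 88 and 137 UMIs in all. The ranges overlapped. The difference was -0.91 ± 0.24 with an adjusted p of 0.036 (edgeR), in a subset chosen after seeing the data. The call of *Aspa* in all astrocytes held without any single library (-1.07 to -0.86) and in mice 1 to 3 alone (-1.26, adjusted p 0.0099), and did not pass in mice 4 to 6 alone (-0.69, adjusted p 0.32).

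**Figure D4:**
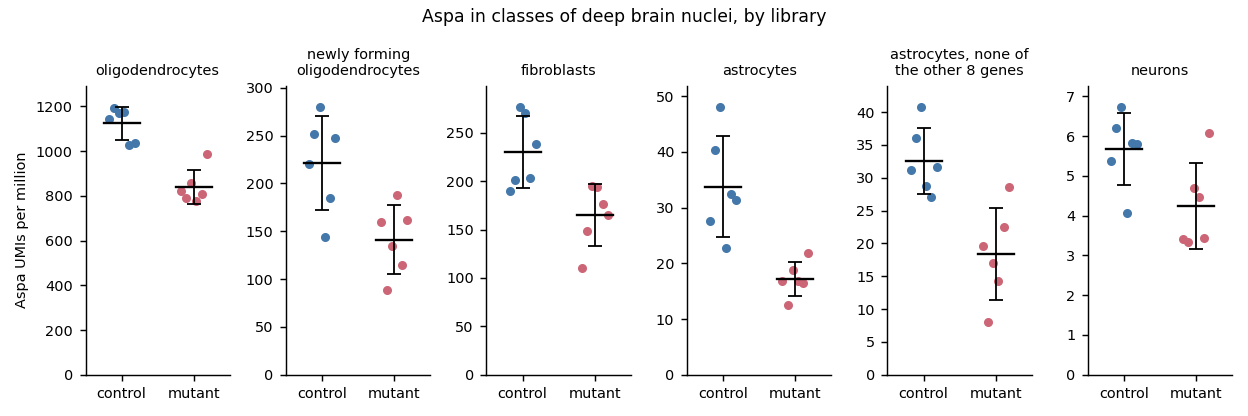
*Aspa* CPM in each deep brain library for 6 sets of nuclei, mutants and controls side by side. Oligodendrocytes (776 to 987 against 1029 to 1191) and astrocytes (12.5 to 21.9 against 22.8 to 48.0) separate the genotypes, and neurons, at 3.34 to 6.73 CPM, have the lowest level of these sets.

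Newly forming oligodendrocytes held 88.6 to 188 CPM in mutants (median 147), against 144 to 280 in controls (median 234), which overlapped. Microglia held 1.62 to 13.8 CPM in mutants and 10.1 to 43.5 in controls, too few UMIs to be tested, and none of the 8 members tested in microglia passed with edgeR (0 at an unadjusted p under 0.05, 0 by DESeq2), where 0.169% of genes did. Cortical astrocytes (1671 nuclei) held 10.9 ± 5.5 CPM of *Aspa*. *Aspa* was left out of the cortical astrocyte test for low counts, and none of the 5 members tested there passed with edgeR (0 at an unadjusted p under 0.05, 0 by DESeq2), beside 1.98% of all genes.

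Neurons do not make myelin, and droplets take up free RNA, so myelin transcripts counted in neurons can be background. The *Mbp* locus is an exception, since neurons are known to use its longer golli transcripts, and counts of the gene do not separate these. The level in deep brain neurons was 0.502% (*Aspa*) to 4.85% (*Cnp*) of the oligodendrocyte level. *Mbp* was at 60.03 to 71.5 CPM in mutants (median 70.4), against 64.4 to 90.5 in controls (median 82.0), overlapping. After thinning to 1000 UMIs, 6.94% of neurons and 98.9% of oligodendrocytes had an *Mbp* UMI (41.0% and 99.9% unthinned). None of the 9 members passed the genotype test in deep brain neurons with edgeR, where 0.303% of genes did. An unadjusted p under 0.05 was found for 3 of them, *Mbp* (-0.23 ± 0.08), *Mal* (0.24 ± 0.10) and *Aspa* (-0.42 ± 0.14), and DESeq2 called 0 members. For the neurons of either region, the share of all genes at that unadjusted threshold is not given here. The 5 astrocytic markers, all detected in deep brain neurons, summed to 161 to 249 CPM in mutants (median 175), against 203 to 355 in controls (median 298), and the 8 oligodendrocyte markers to 53.2 to 140 and 62.3 to 74.3 CPM. The part of either list in these differences was not tested.

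*Aspa* in neurons was at 3.34 to 6.07 CPM in mutants (median 3.96), against 4.07 to 6.73 in controls (median 5.82), so the groups overlapped. In cortical neurons 0 of 9 members passed with edgeR, where 0.00603% of genes did, and DESeq2 called 0. *Mobp* alone had an unadjusted p under 0.05 there among these members: it was at 8.92 to 16.8 CPM in mutants (median 14.0), against 7.47 to 12.2 in controls (median 9.45), a difference of 0.48 ± 0.16 with an adjusted p of 0.61 (edgeR). The 8 oligodendrocyte markers in cortical neurons, all detected, summed to 37.0 to 78.7 CPM in mutants (median 53.5), against 29.5 to 43.9 in controls (median 37.9), and their part in the *Mobp* values was not tested.

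The share of a gene's UMIs that lay outside oligodendrocytes differed from gene to gene. In the deep brain, oligodendrocytes held 83.0% of the *Aspa* UMIs, 82.1% of *Mog*, 81.4% of *Mobp*, 79.4% of *Mag*, 77.3% of *Ugt8a*, 76.3% of *Mbp*, 72.9% of *Cldn11*, 69.3% of *Mal* and 58.0% of *Cnp*. Neurons held 22.4% of the *Cnp* UMIs, 14.5% of *Mal* and 11.4% of *Cldn11*, but 3.31% of *Aspa*. In the cortex the oligodendrocytes held 44.6% of *Cnp*, 51.2% of *Mal* and 80.3% of *Aspa*.

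The ratios between the genes were not the same in every class. Pooled over libraries, oligodendrocytes held 4.57 *Mbp* UMIs per *Mog* UMI in the deep brain and 4.22 in the cortex. Neurons held 8.22 and 15.0, and the unnamed clusters led by mitochondrial genes held 15.2 and 14.9. The shallow clusters of the cortex were on the other side, at 2.83. For *Mal*, cortical oligodendrocytes held 28588 UMIs beside 26707 of *Mog*. The shallow clusters had 3.83 *Mal* UMIs per *Mog* UMI, against 0.890 in deep brain oligodendrocytes, and *Mal* (447 CPM), *Cldn11* (365) and *Mbp* (331) were about level in these clusters. Cortical barcodes with 500 genes or fewer (28256 barcodes), which were left out of all tests, had a like *Mal* ratio of 3.95 per *Mog* UMI. Their *Mbp* ratio was not that of the shallow clusters: they held 7793 *Mbp* and 1795 *Mog* UMIs, close to the ratio in oligodendrocytes. The low-gene barcodes of the deep brain held 1119 *Mbp*, 512 *Mal* and 199 *Mog* UMIs.

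In the low-gene barcodes of the deep brain (1584 barcodes) *Aspa* was at 29.1 to 147 CPM in mutants (median 66.4), against 72.9 to 167 in controls (median 105). *Mobp* was at 313 to 481 CPM in mutants (median 398), against 210 to 377 in controls (median 263). Both pairs of ranges overlapped. The medians had the order seen in oligodendrocytes for both genes, and no test was made.

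**Figure D5:**
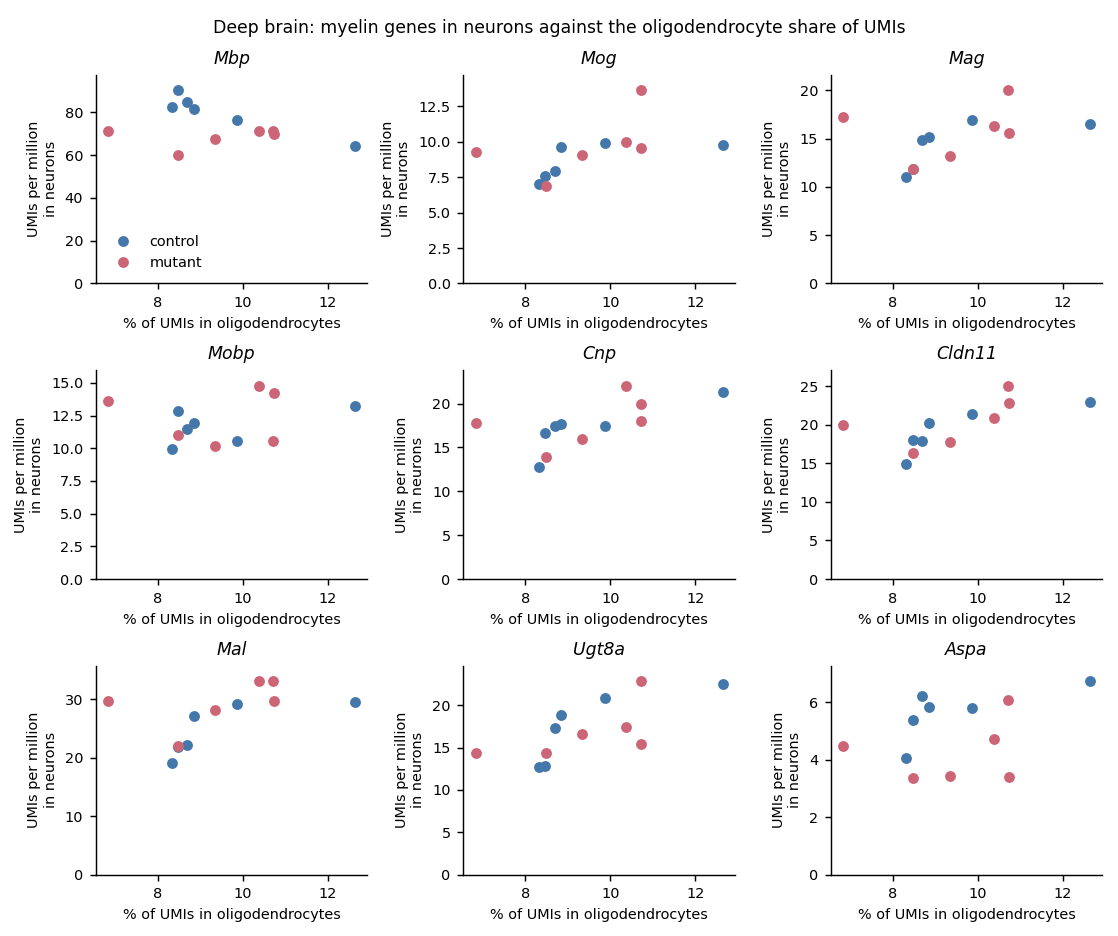
CPM of each gene in deep brain neurons against the percent of a library's UMIs that lie in oligodendrocytes, 1 point per library. Pearson's r ran from -0.38 for *Mbp* to 0.72 for *Ugt8a*, and none of the 9 values of r passed after adjustment.

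Over the 12 deep brain libraries, the level in neurons was compared with the percent of UMIs in oligodendrocytes, taken here as an indirect measure of how much myelin RNA a suspension held. Both share the library, and 18 such correlations were made over both regions. Pearson's r was 0.72 for *Ugt8a* (permutation p adjusted 0.14, Spearman's rho 0.77, adjusted 0.044) and 0.67 for *Cldn11* (permutation p adjusted 0.14, rho 0.79, adjusted 0.044). Without control 3 and mutant 4, the libraries farthest from the median, *Ugt8a* was at 0.61 and did not pass, whereas *Mal* (0.92), *Cldn11* (0.89), *Mag* (0.82), *Mog* (0.82) and *Cnp* (0.76) did. *Mbp* did not pass (-0.38 and -0.42). Its r was 0.27 within the 6 mutants and -0.94 within the 6 controls, and 0.05 over all 12 libraries when the share of thinned neurons with an *Mbp* UMI was used in place of the level. *Aspa* did not pass either (0.36 and 0.03). In the cortex r was -0.08 to 0.62, and that of *Mog*, the highest, was 0.05 without its 2 farthest libraries.

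Oligodendrocytes made up 22.7 ± 2.2% of the deep brain nuclei of mutants and 25.8 ± 3.0% of those of controls (SD, n = 6 each), a difference of -3.17 points with a p of 0.067 in an exact two-sided permutation test without pairing. Each of the 6 mutants had a lower share than the control of its number, and a paired test was not made. In the cortex the shares were 8.50 ± 7.62% and 8.20 ± 4.57%, with a p of 0.957 in the same exact permutation test. Counted among the nuclei with a class name, a choice made after seeing the data, the cortical share was 21.4 ± 4.5% in mutants and 16.9 ± 1.4% in controls (p 0.0216, exact permutation test). The cortical share therefore depends on the nuclei counted in the denominator.

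Around the 9 genes, 4 lists with 61 further genes of oligodendrocytes were read in the same fits. In deep brain oligodendrocytes 1.66% of all 13515 genes tested passed between the genotypes with edgeR, and 494 genes with DESeq2. Of the 26 genes of sheath and membrane tested in deep brain oligodendrocytes, 0 were higher and 1 was lower in mutants: *Cryab*, a small heat shock protein, at 113 to 160 CPM in mutants and 151 to 276 in controls (-0.66 ± 0.15, adjusted p 0.036, edgeR). The list's median difference was -0.14, beside 0.00 over all genes, and DESeq2 called 4 of it. An unadjusted p under 0.05 was found for 10 of the 26 with edgeR. The share of all genes at that unadjusted threshold is not given for this comparison. Of the 12 transcription factors of the lineage, 1 was higher: *Zfp488*, which promotes oligodendrocyte differentiation, at 18.4 to 35.6 CPM in mutants and 15.3 to 20.5 in controls (0.64 ± 0.14, adjusted p 0.027, edgeR). Both pairs of ranges overlapped. Of the 12 factors, 3 had an unadjusted p under 0.05 with edgeR, and DESeq2 called 1. Of 14 lipid genes and 6 genes of the newly forming stage 0 passed with edgeR, with 2 and 1 at an unadjusted p under 0.05 and 0 by DESeq2.

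In cortical oligodendrocytes 0.95% of all 10104 genes passed with edgeR, 219 genes passed with DESeq2 and 1312 had an unadjusted p under 0.05 with edgeR. Among the lists, edgeR called 0 of 26 sheath, 13 lipid, 11 lineage and 5 newly forming genes between the genotypes. An unadjusted p under 0.05 was found for 6, 3, 6 and 0 of them, and DESeq2 called 1, 1, 0 and 0. The median differences were -0.09, -0.16, 0.07 and 0.22 in that order, beside -0.00 over all genes.

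Between the regions of control mice, where 7.35% of all 12702 genes passed with edgeR, the lists had edgeR shares near that background. Of 26 sheath genes, 2 were lower in the deep brain and 0 were higher. They were *Cd9* (-0.52 ± 0.11, adjusted p 0.0058, edgeR) and *Tspan2* (-0.31 ± 0.08, adjusted p 0.017), both tetraspanins of the membrane. *Cers2*, the ceramide synthase for very long chains, was the 1 of 14 lipid genes that was lower (-0.46 ± 0.13, adjusted p 0.032, edgeR). *Tcf7l2*, a Wnt pathway factor of differentiating oligodendrocytes, was the 1 of 12 lineage factors that was higher, at 56.6 to 76.1 CPM in the deep brain and 34.7 to 54.6 in the cortex (0.56 ± 0.12, adjusted p 0.0050, edgeR), without overlap. The 7 neuronal markers summed to 433 to 659 CPM in the control oligodendrocytes of the deep brain and 732 to 1185 in those of the cortex. This sum does not show how much *Tcf7l2* the neurons of either region hold. The part of neuronal RNA in the *Tcf7l2* values was not tested. Of 6 newly forming genes 0 passed with edgeR, with 2 at an unadjusted p under 0.05 and 2 called by DESeq2. In the sheath, lipid and lineage lists, 7, 3 and 2 genes had an unadjusted p under 0.05 with edgeR. DESeq2 called 5, 2 and 2 of them in that order. The shares of all genes at these 2 measures are not given here.

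Over the 15 means of class and region, the genes whose pattern was most like that of a member were found by Pearson's r. For *Mog* these were *Opalin* (r 0.991 on the log scale), *Anln* (0.989) and *Hapln2* (0.988). *Ugt8a*, with its precursor level, was nearest to *Fa2h* (0.995) and *Erbb3* (0.988). *Mal* was nearest to *Ywhaq* (0.980), *Qdpr* (0.962) and *Atl3* (0.961), *Mobp* and *Mbp* to *Tnni1* (0.981 and 0.982), and *Aspa* to *Micall1* (0.972) and *Anln* (0.966). *Opalin* was also near *Cldn11* (0.990) and *Mag* (0.984), and *Cryab* near *Cnp* (0.973). These values describe 15 means from the same libraries and were not tested.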

How the data were processed

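Nuclei of frozen brain tissue were sequenced in 24 libraries with 10x 5′ chemistry. The authors deposited raw UMI counts per gene and barcode (counts, not normalised) made with Cell Ranger 5.0.1 on mm10 with intronic reads, after bcl2fastq 2.20.0.422 per the labels. The 3 reporter rows were not used. Barcodes with more than 500 and fewer than 7000 genes and under 20% mitochondrial UMIs were kept. No doublet caller was run. Each region was clustered (2000 variable genes without the 9 members, 20 components, 20 neighbours, Louvain resolution 0.5, Seurat 5.3.0 in R 4.3.3, and scanpy 1.11.5 with Python 3.11.15). A cluster was named where at least 3 markers and 40% of 1 of 12 lists were raised by 1.5 on the log2 scale with 10 CPM added. The resolution and this rule were set after the clusters were seen. Counts were summed per library and class where a library had 20 or more nuclei, CPM is a gene's UMIs relative to all UMIs of that class in the library, and groups were compared with the quasi-likelihood test of edgeR 4.0.16 with Benjamini-Hochberg adjustment at 0.05 (groups of 6 mice, no block). DESeq2 1.42.0 was an alternative, with others on normalisation, filters, depth, age and single libraries. Shares and correlations used permutation tests (scipy 1.17.1, exact or with 100000 resamples).

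On counts simulated for deep brain oligodendrocytes (13515 genes), edgeR found 83% of genes changed by 1 and 46% of genes changed by 0.5 on the log2 scale, and 2.27% of its calls were false. Members, lists and tests were chosen with earlier results of these data known. All 9 members are named, with the genes of the lists that passed and up to 3 genes nearest in pattern to a member. Same-numbered mutants and controls correlated by -0.14 to 0.28 in the deep brain and 0.02 to 0.51 in the cortex after removal of group means. A correlation of 0.1 was reached by 3 of 6 and 4 of 6 pairs. The fit without a block was kept, although same-numbered mice 1 to 4 match in age to the day, and fits with the number or the age as a block were alternatives. Both regions of a control share a mouse.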

Additional observations from a re-analysis of the deposited data

Results flagged for a closer look

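Among 148 groups of 4 to 6 libraries examined, 4 held a library far from its group, where chance gives about 1 in 20. All were deep brain mutants, and none was in oligodendrocytes. *Mbp* in the neurons of mutant 2 was at 60.03 CPM, below the other 5 mutants at 67.5 to 71.5. *Ugt8a* in the neurons of mutant 6 was at 22.9 CPM, above the others at 14.3 to 17.4. *Aspa* in the precursor cells of mutant 6 was at 2.57 CPM (3 UMIs), below the others at 5.75 to 7.54 (7 to 10 UMIs). In the microglia of mutant 2 *Aspa* was at 1.62 CPM, below the others at 10.1 to 13.8, in a class with too few *Aspa* UMIs to be tested. No cause was tested for any of them.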

How the results depend on the processing

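The number of the 9 genes called changed under these alternatives. In deep brain oligodendrocytes (1 call, *Aspa*) it was 0 with the replicate block, 0 with an age-matched block, 0 in mice 4 to 6 alone and 0 to 1 when a library was left out. In cortical oligodendrocytes (1 call) it was 2 with the replicate block and 2 with the age-matched block, 0 without the filter on low counts (*Aspa* -0.38, adjusted p 0.084, edgeR), 0 in the deeper libraries alone, 0 in mice 4 to 6 alone and 0 to 2 when a library was left out. Between regions (2 calls) it was 0 in mice 4 to 6 alone and 0 to 2 when a mouse was left out. In deep brain astrocytes (1 call) it was 0 in mice 4 to 6 alone. Fits on 3 mice a genotype have fewer samples, and the cause of the other changes was not tested. The cortical oligodendrocyte share differed by 4.51 points among named nuclei, and 5 of the neuronal correlations passed by Pearson's r without the 2 farthest libraries, against 0 with all (by Spearman's rho, *Ugt8a* and *Cldn11* passed with all). With the share of thinned neurons in place of the level, *Mog*, *Mag*, *Cnp*, *Mal* and *Ugt8a* passed in the deep brain by Spearman's rho with all libraries, and none by Pearson's r. No value reversed in sign past a threshold. Same-numbered mice 1 to 4 match in age, and 5 and 6 match crosswise, but not every mutant was most like the control of its own number. A call lost with a block, such as that of *Aspa* in deep brain oligodendrocytes, therefore depends on the fit.

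Over all genes, DESeq2 called 494 in deep brain oligodendrocytes (edgeR 225), 219 in cortical ones (edgeR 96) and 530 in deep brain neurons (edgeR 60). The replicate block called 547 and the age-matched block 426 in cortical oligodendrocytes. The interaction gave 0 genes with edgeR, 4 with DESeq2 and 6 with the mouse as a block. The fits on mice 1 to 3, mice 4 to 6, the deeper libraries, the age term, astrocytes without the other 8 genes and the share of named nuclei were added after seeing the data. Depth limits the cortex, where 7 libraries are shallow, and *Aspa* in precursor cells and microglia, which could not be tested. The libraries of a group differ in age, and 1 control is male. Replicates are separate mice.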
